A study of Mus musculus with 11 samples.

Results

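The mRNAs described here encode the proteins of the cytosolic ribosome. They were taken by symbol from the expression tables: Rpl or Rps followed by a number with or without a final a or x, and in addition Rplp0, Rplp1, Rplp2 and Rpsa. The rule found 77 genes among 23284, of which 46 encode proteins of the large subunit and 31 proteins of the small subunit. It used names only and no measured value.

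The libraries came from mouse embryonic stem cells (ESCs) grown on gelatin in medium with serum and leukemia inhibitory factor. Wild-type (WT) ESCs were compared with Tet1/2/3 triple-knockout (TKO) ESCs, a single knockout line that lacks the enzymes oxidizing 5-methylcytosine. RNA depleted of ribosomal RNA was sequenced from WT and TKO ESCs without α-amanitin (0 h) and after 4 h in 10 μg/ml of this compound, which blocks RNA polymerase II. Each of these 4 groups has 2 libraries. Polyadenylated RNA was sequenced from untreated WT ESCs only, in 3 libraries from another sequencing experiment. The amanitin series addresses how fast mRNAs decay once their synthesis is blocked and whether loss of Tets alters this.

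A mammalian ribosome holds a single copy of nearly every ribosomal protein, and the stalk proteins Rplp1 and Rplp2 are the exception. Its mRNAs are short, abundant and long-lived, and in growing cells they are made and translated together. Most of them start with a C followed by a run of pyrimidines, the 5′ terminal oligopyrimidine (TOP) tract, through which the kinase mTOR and the RNA-binding protein Larp1 control their translation.

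To see this feature in the members, 30-base windows around the annotated start site were read from the RefSeq table (build GRCm38.p6, which is not the build of the expression files). The table held 56 of the 77 members by symbol. A run of at least 6 C or T was searched only on the strand that has the sequence of the mRNA. Such a run was present in the window of 35 of these 56 (62.5%) and of 8833 of all 27025 genes in the table (32.7%). The windows below run 5′ to 3′ with the start site as base 16, and capitals mark such runs. The first 4 members have long runs and rose on α-amanitin with most of the class. Rps27 fell, Rps2 has the shortest run counted, and the last 3 have no run of this length. Rps2, Rps13, Rplp0 and Rps16 rose as well, and the rises of Rps16 and Rps2 were the largest of the class. The windows shown are selected examples from the 56 members with a window, and a relation between run and rise was not tested.
Rpl7a (chr2:26910792-26910821, plus strand): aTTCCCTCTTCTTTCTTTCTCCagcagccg
Rpl35 (chr2:39005117-39005146, minus strand): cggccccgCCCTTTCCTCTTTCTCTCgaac
Rpl15 (chr14:18270972-18271001, minus strand): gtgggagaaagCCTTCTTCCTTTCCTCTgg
Rps18 (chr17:33955651-33955680, minus strand): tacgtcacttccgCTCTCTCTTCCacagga
Rps27 (chr3:90213634-90213663, minus strand): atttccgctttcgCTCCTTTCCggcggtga
Rps2 (chr17:24720048-24720077, plus strand): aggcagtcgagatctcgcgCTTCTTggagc
Rps13 (chr7:116334176-116334205, minus strand): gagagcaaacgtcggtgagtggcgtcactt
Rplp0 (chr5:115559452-115559481, plus strand): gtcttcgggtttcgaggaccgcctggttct
Rps16 (chr7:28350674-28350703, plus strand): cccgcttctgtcgtgacgtagcactcaatg
Among the windows shown, the runs reached 21 bases in Rpl7a and 18 in Rpl35, against 3 in Rps13 and 5 in both Rplp0 and Rps16. An annotated start can lie a few bases from the one these cells use, so a window without a run shows only that the letters are not in it.

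The values are TPM, read counts per gene divided by transcript length and scaled to a fixed total in each library. Where levels are compared between libraries they are given as scaled TPM, adjusted so that the typical gene is equal across libraries, and log2 changes are of scaled TPM + 1. They are shares of the sequenced RNA, and a change in the total mRNA of a cell cannot be seen in them. Whole reads recovered from the TPM gave 25507874 to 29781366 reads in genes for the 8 ribodepleted libraries and 72639837 to 82129168 for the 3 polyA libraries. Tet1 and Tet2, which check the genotype labels, were 4.32-fold and 6.23-fold lower in TKO than in WT ESCs at 0 h (adjusted p = 1.45e-06 and 3.25e-07, limma), whereas Tet3 was near 1.4 TPM in both. The 6 ESC markers summed to between 1491 and 2241 TPM in the ribodepleted libraries, against 8.62 to 14.1 TPM for 6 fibroblast markers and 3.77 to 5.38 TPM for 6 primitive endoderm markers. Lum was at 0 in both WT libraries at 0 h, and no other of these 12 markers was at 0 in both libraries of a ribodepleted group. The ESC markers were lower in TKO (1538 and 1551 TPM at 0 h) than in WT ESCs (2203 and 2241 TPM), with Zfp42 4.23-fold lower, and the fibroblast markers were higher (12.5 and 13.0 against 8.62 and 8.72 TPM). The part of these differences in the genotype comparison of ribosomal protein mRNAs was not tested.

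The class held 12.5% and 13.2% of all TPM in the 2 WT libraries at 0 h and 14.3% and 13.7% in the 2 WT libraries after amanitin. In TKO ESCs it held 13.2% and 13.1% at 0 h and 13.3% and 14.3% after amanitin. The 3 polyA libraries gave 22.7%, 22.5% and 22.8%, far above every ribodepleted library. The WT groups at 0 h and 4 h did not overlap, and neither did the TKO groups, but the lower TKO library at 4 h lay much closer to both TKO libraries at 0 h than to the other one at 4 h. Short structured RNAs took part of the total in ribodepleted RNA: Rpph1 and Rmrp together held 12.2% to 14.7% of TPM there and about 0.001% in polyA RNA, and in WT ESCs their share was 12.9% and 13.4% at 0 h and 14.7% and 14.5% at 4 h. With such features left out of the total, the class held a mean of 15.3% in WT at 0 h, 16.9% in WT at 4 h, 15.5% in TKO at 0 h and 16.5% in TKO at 4 h.

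**Figure D1:**
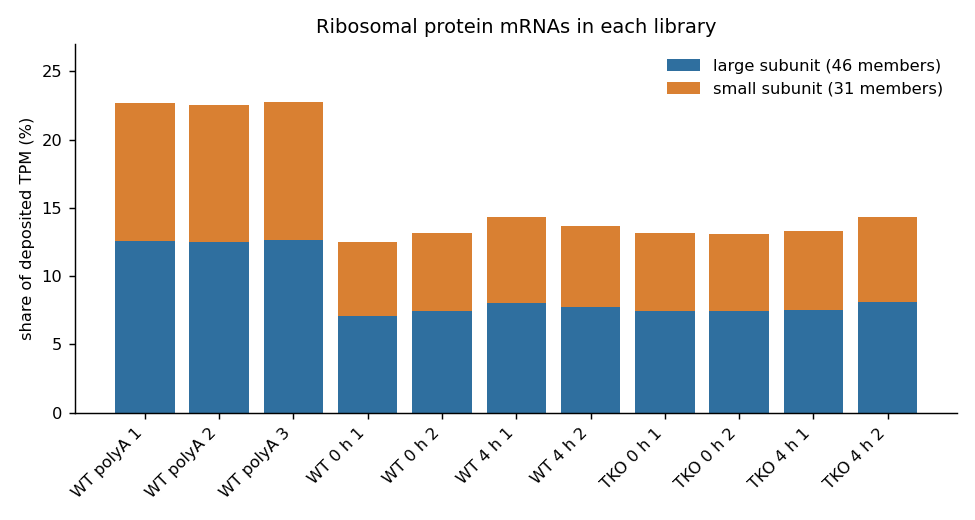
Share of deposited TPM, in percent, held by the 46 large subunit members (blue) and the 31 small subunit members (orange) in each of the 11 libraries, labelled by genotype, preparation or time, and replicate. The polyA libraries stand between 22.5% and 22.8% and the ribodepleted ones between 12.5% and 14.3%.

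The proportion of the 2 subunits lay in a narrow range in the ribodepleted libraries. TPM summed over the small subunit were 0.768 and 0.778 times those of the large subunit in WT at 0 h and 0.782 and 0.772 times in WT at 4 h. In TKO ESCs the ratio was 0.771 and 0.767 at 0 h and 0.773 and 0.772 at 4 h. All 8 libraries lay between 0.767 and 0.782, and the WT groups overlapped each other, whereas TKO at 0 h lay just below both groups at 4 h. The 5 highest members by ribodepleted mean include Rps2, a small subunit member that was higher in TKO. Without these 5 the ratio was 0.815 to 0.826 in WT and 0.783 to 0.793 in TKO libraries. Leaving out Rps2 takes more from the small subunit sum in TKO than in WT. The gap thus follows at least in part from which members were left out. As a ratio of the median member of each subunit the value was above 1, with group means of 1.28 to 1.33. The polyA libraries were slightly higher, at 0.801, 0.802 and 0.807.

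Levels among the members were uneven. In ribodepleted RNA 73 of the 77 had a mean between 204 and 5275 TPM, with a median of 1666 TPM, and 53 members were among the 100 most abundant genes. Rplp1, which with Rplp2 and Rplp0 forms the stalk that recruits elongation factors, was the highest member in every library, with 4749 and 5221 scaled TPM in WT at 0 h. Rps12 followed with a mean of 4012 TPM, then Rps2, which lines the channel where mRNA enters, with 3928 TPM, and Rpl8 with 3818 TPM. Rps2 was higher in the TKO than in the WT libraries, as given below.

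The other 4 members were almost absent from the tables, although the ribosome needs their proteins. Rpl34 had a mean of 11.8 TPM, Rps27 of 8.36 TPM and Rpl30 of 4.14 TPM in ribodepleted RNA, and no member lay between 20 and 100 TPM. These values rest on few reads per library: 66 to 263 for Rpl34, 40 to 98 for Rps27 and 23 to 46 for Rpl30. Rpl26 had 1 read in 1 polyA library and 0 reads in the other 10, and a count of 0 allows up to 3 reads. It was below the filter and is the single member that entered no test, which leaves 76.

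Many members have near-identical copies in the genome, which can take or lose reads depending on how multiple matches were counted. Of the 76 members with a gene in the annotation of the files' build (GENCODE vM1, NCBIM37, the same assembly as mm9), 42 had at least 1 copy with 95% identity over 80% of the transcript, up to 29 copies for Rpl7a. For Rps27 (chr3:90016593-90017573) 99.5% of all 150-base stretches, the read length of the ribodepleted libraries, also occurred elsewhere in the genome. The share was 35.2% for Rpl30, 10.8% for Rpl26 and 7.6% for Rpl34, and for Rps12, the second most abundant member, it was 97.6%. The part of copies in the low values was not tested. The values of Rps27, Rps2, Rpl29 and Rpl23a below are uncertain in the same way, with 5, 25, 19 and 17 such copies. Other named members are too, among them Rps13 (5 copies, 86.1% of stretches found elsewhere) and Rps16 (2 copies, 77.4%). Rps3a had 7 copies and Rps18 had 5.

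The first comparison asked how the members changed in WT ESCs during 4 h in α-amanitin. How far RNA polymerase II was blocked over this time was not tested. Most members rose relative to other mRNAs, by a small amount, and how many passed depended on single libraries. For Rps16 (chr7:29135671-29137715), a small subunit protein that contacts transfer RNA, scaled TPM were 534 and 610 at 0 h and 902 and 755 at 4 h. Both treated libraries lay above both untreated ones, and the rise of 1.45-fold was the largest in the class (log2 change 0.53 ± 0.09 SE, n = 2 and 2, adjusted p = 0.00689, limma).

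Rplp0, the base of the stalk and a common reference gene, had 2659 and 2800 scaled TPM at 0 h and 3500 and 3339 at 4 h (log2 change 0.33 ± 0.09 SE, adjusted p = 0.0213, limma). Rplp1 rose from 4749 and 5221 to 6399 and 5925 (0.31 ± 0.10 SE, adjusted p = 0.0408, limma). Rpsa, the small subunit protein also known as the laminin receptor, rose from 1814 and 1989 to 2368 and 2238 (0.28 ± 0.09 SE, adjusted p = 0.0352, limma). None of these groups overlapped. Rplp2, with 2439 and 2687 at 0 h and 3279 and 2958 at 4 h, had a change of the same size that missed the threshold (0.28 ± 0.10 SE, adjusted p = 0.0566, limma).

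Of the 76 tested members 57 passed at an adjusted p under 0.05 as higher, where 21.9% of all 12467 tested genes did, and 1 passed as lower (background 15.8%). The members' median log2 change was 0.28 with quartiles of 0.25 and 0.30, against a median of 0.03 and quartiles of -0.16 and 0.18 for all tested genes. The 2 libraries at 4 h lay above the 2 at 0 h for 73 of 76 members (background 40.5%) and below them for 1 (background 32.5%). Large and small subunit members did so alike: 34 of 45 and 23 of 31 passed as higher, with medians of 0.28 and 0.27. After Rps16 the largest rises were those of Rps2 (0.38 ± 0.10 SE) and Rps29 (0.37 ± 0.11 SE), and 0 members exceeded 1.5-fold upward (background 0.0882%).

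The exception was Rps27, a zinc-binding protein of the small subunit, which fell. It had 9.8 and 10.9 scaled TPM at 0 h and 5.2 in both libraries at 4 h, a 1.82-fold decrease (log2 change -0.87 ± 0.11 SE, adjusted p = 0.00395, limma), the one change of the class past 1.5-fold (background 2.01% lower). Rpl34 had 14.0 and 13.0 at 0 h against 13.2 and 10.0 at 4 h (-0.21 ± 0.13 SE), and Rpl30 had 3.1 and 4.8 against 2.8 and 5.0 (-0.04 ± 0.28 SE). Neither passed. These are the 3 tested members with the lowest levels, and their values rest on few reads. The members were also measured against the class itself, with size factors computed over them (an alternative chosen after seeing the data). Rps16 and Rps2 then remained higher, and Rps27 and Rpl34 were lower (adjusted p = 0.0469 for Rpl34, limma). Of all tested genes 0.0881% passed as higher and 26.96% as lower in this fit. The share of lower members was thus below that of all genes.

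Replicates differed in the class as a whole. Between the 2 WT libraries at 0 h the members' median log2 difference was 0.13, with 75 of 76 higher in replicate 2, and between the 2 at 4 h it was -0.11, with 75 of 76 lower in replicate 2. The medians of all genes were near 0. The 4 ways of subtracting a 0 h from a 4 h library gave class medians of 0.40, 0.28, 0.28 and 0.15. The count of 57 fell to 1 without WT 0 h replicate 1 (background 5.91%), to 0 without WT 4 h replicate 1 (background 0.815%), to 18 without WT 4 h replicate 2 (background 13.2%) and to 37 without WT 0 h replicate 2 (background 13.8%), while the median stayed between 0.21 and 0.34. The scaling mattered as well. With the deposited TPM 11 members passed as higher (background 3.18%, median 0.12), while the median of all genes moved by -0.14. After quantile normalization 17 did (background 12.0%, median 0.08). Without the filter on low values 7 passed as higher, a smaller share than the 11.1% of all tested genes.

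**Figure D2:**
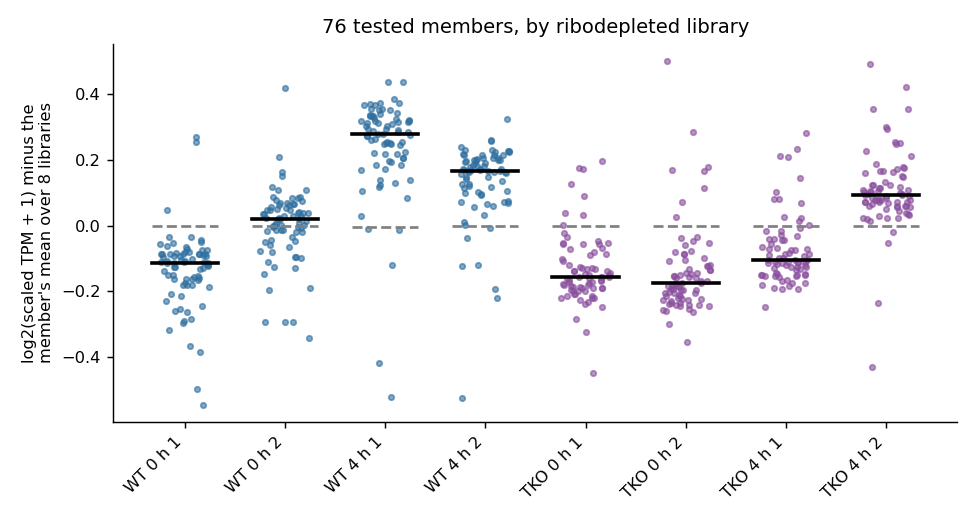
For each ribodepleted library, log2(scaled TPM + 1) of the 76 tested members minus each member's own mean over the 8 libraries (points, blue for WT and purple for TKO). Black bars are the members' medians, from -0.17 in TKO 0 h replicate 2 to 0.28 in WT 4 h replicate 1, and dashed grey bars the medians of all tested genes, which lie near 0.

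In TKO ESCs amanitin gave a change in the same direction that did not pass the test for any member. Rps16 had 598 and 628 scaled TPM at 0 h and 704 and 657 at 4 h (log2 change 0.15 ± 0.09 SE, adjusted p = 0.336, limma). Rplp0 had 3653 and 3605 at 0 h and 3792 and 4383 at 4 h (0.17 ± 0.09 SE, adjusted p = 0.256, limma). Rplp1 had 4654 and 4718 against 5006 and 5739 (0.19 ± 0.10 SE). In all 3 both treated libraries lay above both untreated ones, but replicate 2 at 4 h carried most of the distance for Rplp0 and Rplp1.

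With limma 0 of 76 members passed in either direction, as did 0% of all tested genes upward and 0.265% downward. At an unadjusted p under 0.05 there were 16 higher and 2 lower members (background 13.7% and 11.3%), and limma voom on the recovered reads, added after seeing the data, called 8 members higher (background 1.88%). The members' median log2 change was 0.16 (all genes 0.01). Above 0 were 74 of 76 members and 6681 of all 12467 tested genes. The libraries did not overlap for 63 members that were higher (background 32.7%) and for 2 that were lower (background 26.0%). The largest rises were those of Rpl30 (0.28 ± 0.28 SE), Rpl38 (0.26 ± 0.08 SE) and Rps28 (0.25 ± 0.09 SE). Rps27 had 9.1 and 11.6 scaled TPM at 0 h and 7.4 and 6.6 at 4 h (-0.50 ± 0.11 SE, adjusted p = 0.0985, limma), and Rpl34 had 11.9 and 13.2 against 10.2 and 8.4 (-0.40 ± 0.13 SE, adjusted p = 0.135, limma). At the other end of the class Rpl3, a protein at the catalytic center, had a change of 0.09 ± 0.07 SE.

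Replicates decided the TKO result. The 2 TKO libraries at 4 h differed by a class median of 0.20, more than the amanitin change itself, whereas the 2 at 0 h differed by -0.02. Without TKO 4 h replicate 1, 43 members passed as higher (background 12.7%) and 2 as lower (background 9.85%) with a median of 0.27, and without TKO 4 h replicate 2 none passed and the median was 0.07. The fit then rests on 1 treated TKO library, assumed to vary like the other groups.

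Whether the response to amanitin differed between the genotypes was tested as an interaction. The members' median interaction was -0.11 on the log2 scale (all genes -0.02), that is a smaller rise in TKO. Below 0 were 74 of 76 members and 6776 of all 12467 tested genes. With limma 0 members passed in either direction, as did 0 of all 12467 genes and 0 members with voom, and 1 member was higher and 1 lower at an unadjusted p under 0.05, where all genes had 4.05% and 3.47%. The largest differences were -0.38 ± 0.13 SE for Rps16 (95% interval -0.68 to -0.08, adjusted p = 0.662, limma), and -0.23 ± 0.14 SE for Rps2 downward, and 0.37 ± 0.16 SE for Rps27, 0.32 ± 0.40 SE for Rpl30 and -0.01 ± 0.12 SE for Rpl29 at the upper end. The median became -0.0012 without TKO 4 h replicate 1 and -0.21 without replicate 2. A difference between WT and TKO in the response of this class was thus not detectable with 2 libraries a group. The changes in WT and TKO, which share no library, had a Spearman's rho of 0.40 across the 76 members (0.41 across the 73 above 100 TPM), given as a description since members are not independent.

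**Figure D3:**
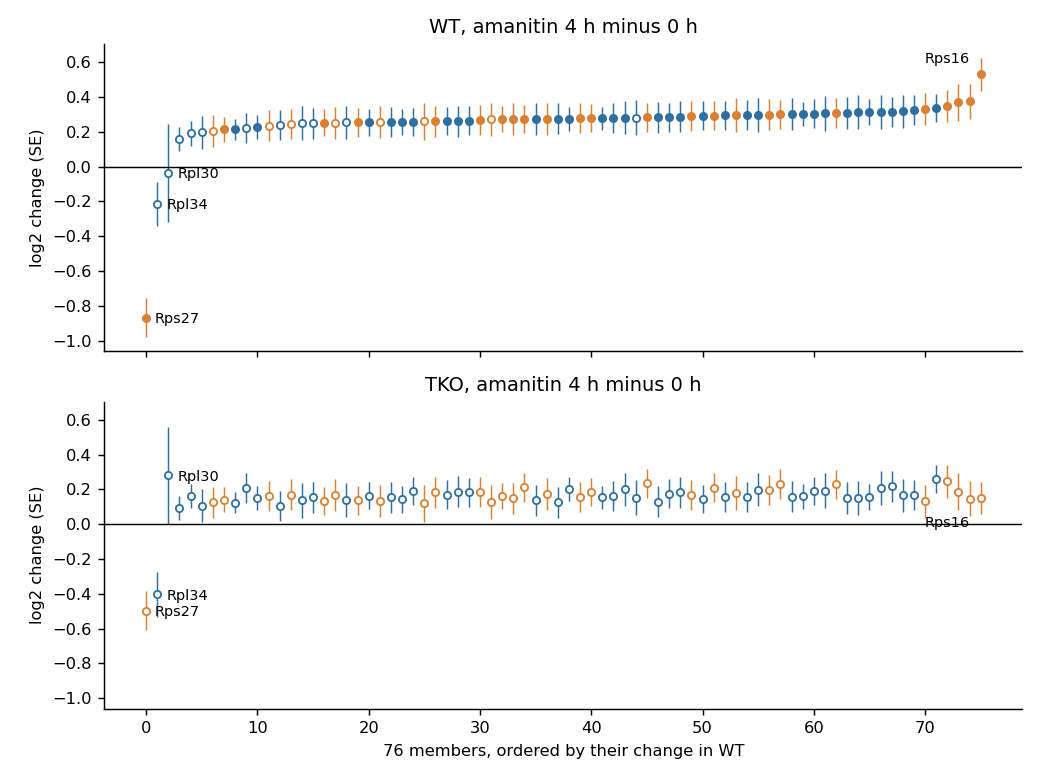
Log2 change on amanitin (4 h minus 0 h) with its standard error for 76 members in WT (top) and TKO ESCs (bottom), in the order of the WT change. Blue marks the large and orange the small subunit, and filled points passed at an adjusted p under 0.05: 58 in WT, 0 in TKO.

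Members with shorter transcripts tended to have the larger rise in WT. Transcript lengths implied by the TPM ran from 327 bases (Rps28) to 5134 bases with a median of 706.5, against 2867 for all tested genes, and Spearman's rho of length and log2 change was -0.37 over 76 members in WT and -0.24 in TKO. The points share their libraries and are not independent, so this is a description. The 22 members with a small nucleolar RNA annotated in an intron (GENCODE vM1) did not stand apart. Their median change in WT was 0.27, and that of the other 53 annotated members 0.28. A host whose small nucleolar RNA is missing from this annotation would be counted among the 53.

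Genes related to the members by function were read beside them. Fau and Gnb2l1, which encode ribosomal proteins outside the naming rule, both rose on amanitin in WT (0.30 ± 0.08 and 0.29 ± 0.09 SE). Lists of further genes follow, each with its count of passing genes beside the background given above. Of 16 further mRNAs known to carry a TOP tract 10 passed as higher and 1 as lower (median 0.24), the highest-level ones being the elongation factor Eef1a1 (0.24 ± 0.11 SE, not passed) and Npm1 (0.23 ± 0.08 SE, not passed). Of 75 mRNAs for proteins of the separate mitochondrial ribosome 37 passed as higher and 2 as lower with a median of 0.17, the highest-level ones being Mrpl42 (0.36 ± 0.07 SE) and Mrpl18 (0.21 ± 0.06 SE).

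Of 30 ribosome assembly factors 15 passed as higher and 3 as lower (median 0.13), with Nop58 at -0.01 ± 0.06 SE and Nhp2 at 0.30 ± 0.06 SE. The 14 RNA polymerase I genes divided, with 4 higher and 5 lower: Rrn3 was at 0.15 ± 0.04 SE and Taf1d at -0.53 ± 0.07 SE. Of 13 regulators of TOP mRNAs 3 passed as higher, among them Larp1 (0.19 ± 0.05 SE) and Eif4ebp1 (0.32 ± 0.06 SE), and 1 as lower. In contrast, 9 of 9 tested immediate-early and other short-lived mRNAs fell (median -0.51), among them Mcl1 (-0.36 ± 0.05 SE) and Ier2 (-0.58 ± 0.08 SE). In TKO ESCs no gene of any of these lists passed with limma, and at an unadjusted p under 0.05 the short-lived mRNAs had 8 of 9 lower. Of the 6 ESC markers Pou5f1 rose (0.33 ± 0.08 SE) and 2 fell in WT, Zfp42 among them (-0.29 ± 0.07 SE).

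The genotypes were compared first at 0 h. A few members differed between TKO and WT ESCs by more than the replicates, in both directions, while most of the class did not pass. Rps2 (chr17:24855061-24858874) had 2624 and 3023 scaled TPM in WT and 4385 and 4299 in TKO ESCs, a 1.54-fold higher level (log2 change 0.62 ± 0.10 SE, adjusted p = 8.32e-04, limma) and the one change past 1.5-fold (background 10.5% higher and 5.43% lower). Rpl29 (chr9:106331785-106333899), a large subunit protein, had 379 and 436 in WT and 605 and 606 in TKO (0.57 ± 0.09 SE, adjusted p = 5.77e-04, limma). Rps3a, a small subunit protein near the mRNA exit, had 1250 and 1334 in WT and 1785 and 1767 in TKO (0.46 ± 0.07 SE, adjusted p = 8.13e-04, limma). In each the WT and TKO libraries were far apart compared with their replicates.

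Rplp0 was also higher in TKO, with 3653 and 3605 against 2659 and 2800 (0.41 ± 0.09 SE, adjusted p = 0.00378, limma), and Rpl23a, at the exit of the peptide tunnel, was higher by 0.26 ± 0.08 SE. The other stalk mRNAs did not follow Rplp0: Rplp1 had 4749 and 5221 in WT and 4654 and 4718 in TKO (-0.09 ± 0.10 SE), a sign that turned positive with deposited TPM (0.01), after quantile normalization (0.04) and relative to the class (0.03), and Rplp2 had 2439 and 2687 against 2263 and 2173 (-0.21 ± 0.10 SE). Rpsa had 1814 and 1989 against 1760 and 1721 (-0.13 ± 0.09 SE). None of these 3 passed.

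Lower in TKO at 0 h were 5 members, 4 of them of the small subunit. Rps13 (chr7:123475021-123477704), a ribosomal RNA-binding protein of the small subunit, had 1507 and 1634 scaled TPM in WT and 1167 and 1142 in TKO (-0.44 ± 0.08 SE, adjusted p = 0.00172, limma). Rps14, of the platform that holds the mRNA, had 2004 and 2227 against 1697 and 1679 (-0.32 ± 0.08 SE, adjusted p = 0.0106, limma). Rps18, Rps25 and Rpl14 were lower by -0.27 ± 0.09, -0.26 ± 0.09 and -0.25 ± 0.08 SE.

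In all, 5 of 76 members passed as higher (6.58%, background 27.8%) and 5 as lower (6.58%, background 28.2%), both shares below those of all genes. With voom 8 passed as higher (background 29.1%) and 29 as lower (background 30.2%), and the lower share was then above that of all genes. The TKO libraries lay above the WT libraries for 10 members (background 39.1%) and below for 45 (background 42.6%). The members' median log2 change was -0.11 (all genes -0.02). The scaling changed the split: 16 higher and 5 lower with deposited TPM (background 33.4% and 17.6%, median -0.02), 20 and 12 after quantile normalization (background 27.02% and 29.1%, median -0.000332), and 19 and 6 relative to the class (background 28.2% and 10.95%). With 1 library left out, the class median ran from -0.19 to -0.05, and both shares stayed below those of all genes.

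The comparison was repeated in the amanitin-treated libraries, which share none with those at 0 h. The members that had been higher in TKO were higher again: Rpl29 (492 and 459 scaled TPM in WT, 651 and 754 in TKO, log2 change 0.56 ± 0.09 SE), Rps2 (3795 and 3517 against 4499 and 5131, 0.40 ± 0.10 SE), Rps3a (0.35 ± 0.07 SE) and Rplp0 (0.25 ± 0.09 SE). Rpl23a no longer passed (0.15 ± 0.08 SE). Rps27 joined them with 5.2 and 5.2 against 7.4 and 6.6 (0.36 ± 0.11 SE, adjusted p = 0.0217, limma). All 5 members that were lower at 0 h were lower again, led by Rps13 with 1978 and 1830 in WT and 1228 and 1407 in TKO (-0.53 ± 0.08 SE, adjusted p = 5.39e-04, limma), Rps25 (-0.39 ± 0.09 SE) and Rps14 (-0.37 ± 0.08 SE).

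Many more members passed as lower at 4 h. With limma 41 of 76 did (53.9%, background 30.3%), with log2 changes from -0.53 to -0.17, and 5 as higher (6.58%, background 29.1%). The large subunit had 22 lower members of 45 and the small subunit 19 of 31. Rplp2 (-0.34 ± 0.10 SE), Rpsa (-0.25 ± 0.09 SE), Rps16 (-0.28 ± 0.09 SE) and Rps29 (-0.31 ± 0.11 SE) were among them, and Rplp1 was not (-0.20 ± 0.10 SE). None exceeded 1.5-fold (background 11% higher and 5.82% lower), and the libraries did not overlap for 5 higher (background 38.4%) and 47 lower members (background 39.9%). The members' median was -0.24 (all genes -0.01). For 73 of the 73 members above 100 TPM the TKO to WT difference was lower at 4 h than at 0 h. This is the sign of the interaction given above and not a further result. The change from 5 to 41 is not a tested difference: the interaction above is that test, and no member passed it.

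The count of 41 depended on scaling and on single libraries. There were 21 lower and 13 higher members with deposited TPM (background 16.6% and 40.3%, median -0.08, while the median of all genes moved by 0.14), 23 and 16 after quantile normalization (background 29.2% and 26.7%, median -0.04), 13 and 20 relative to the class (background 8.87% and 38.3%), and 10 and 4 in a fit of the 4 libraries compared (background 25.9% and 27.2%). With 1 library left out, the class median ran from -0.33 to -0.13. Without WT 4 h replicate 1 or without TKO 4 h replicate 1 the share of lower members was below that of all genes. The TKO to WT changes at 0 h and 4 h had a Spearman's rho of 0.91 and a Pearson's r of 0.90 across 76 members (0.92 and 0.97 across the 73 above 100 TPM), a description across genes that share line and annotation.

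**Figure D4:**
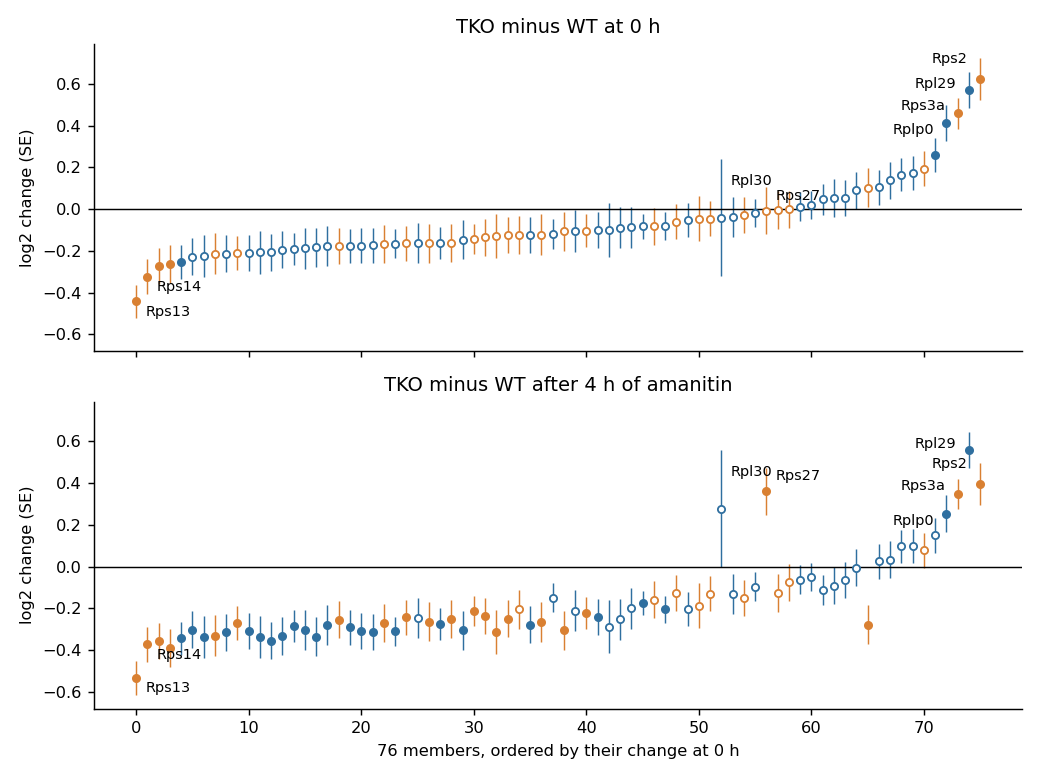
Log2 change of TKO against WT with its standard error for 76 members at 0 h (top) and after 4 h of amanitin (bottom), in the order of the change at 0 h. Blue marks the large and orange the small subunit, and filled points passed at an adjusted p under 0.05: 5 higher and 5 lower at 0 h, 5 higher and 41 lower at 4 h.

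Near relatives of the members were read in the same way. Of all tested genes 27.8% were higher and 28.2% lower at 0 h, and 29.1% and 30.3% at 4 h. Of 6 tested paralogs, genes for alternative forms of ribosomal proteins that are often used in testis or other tissues, 0 were higher and 3 lower in TKO at 0 h: Rpl39l (-1.17 ± 0.10 SE, adjusted p = 3.22e-05, limma), Rpl10l (-0.66 ± 0.06 SE) and Rpl36al (-0.39 ± 0.06 SE), of which Rpl39l and Rpl10l passed 1.5-fold and were named after their values were seen. Rps27l, the highest-level paralog, was at -0.11 ± 0.07 SE. At 4 h 4 of the 6 were lower. Of the ribosomal protein genes outside the rule Fau was lower at 0 h (-0.22 ± 0.08 SE), and Gnb2l1 (0.19 ± 0.09 SE) did not pass.

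Genes of the machinery that builds ribosomes were lower in TKO more than higher, by count. Beside the counts below stand 27.8% of all tested genes higher and 28.2% lower at 0 h. Of 30 assembly factors 3 were higher and 18 lower at 0 h (median -0.19), although the highest-level ones, Nop58 (-0.02 ± 0.06 SE) and Nhp2 (0.05 ± 0.06 SE), did not pass. Of 14 RNA polymerase I genes 1 was higher and 9 were lower (median -0.20), with Rrn3 at -0.42 ± 0.04 SE and Taf1d at -0.12 ± 0.07 SE. Mitochondrial ribosomal proteins had 14 higher and 32 lower of 75 (median -0.12), with Mrpl18 at -0.53 ± 0.06 SE and Mrpl42 at -0.16 ± 0.07 SE. Other TOP mRNAs had 1 higher and 3 lower of 16, with Eef1a1 at -0.13 ± 0.11 SE and Npm1 at 0.11 ± 0.08 SE, and regulators of TOP mRNAs 6 higher and 2 lower of 13, with Eif4ebp1 at 0.20 ± 0.06 SE and Larp1 at 0.08 ± 0.05 SE.

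The last comparison set polyA-enriched against ribodepleted RNA of WT ESCs at 0 h. The RNA selection, the read type and the sequencing experiment changed together and cannot be told apart. The class was higher in polyA RNA, but by very different amounts per member. Rps16 had 2642, 2665 and 2779 scaled TPM in the polyA libraries and 563 and 645 in the ribodepleted ones, a 4.47-fold difference (log2 change 2.16 ± 0.06 SE, adjusted p = 1.41e-08, limma). Rpl35, at the exit of the peptide tunnel, had 3429, 3380 and 3417 against 903 and 1053 (1.80 ± 0.07 SE), and Rpl28 had 3332, 3257 and 3424 against 1200 and 1235 (1.45 ± 0.05 SE).

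Of 76 members 63 passed as higher (82.9%, background 40.1%) and 5 as lower (6.58%, background 40.8%). Past 1.5-fold were 47 higher (background 18.7%) and 3 lower (background 16.4%), and the median log2 change was 0.81 (all genes -0.01). The polyA libraries lay above the ribodepleted ones for 66 members (background 43.1%) and below for 6 (background 43.9%). After quantile normalization 49 were higher and 20 lower (background 42.9% and 38.1%, median 0.50), and relative to the class itself 34 were higher and 34 lower (background 10.4% and 79.3%). Large and small subunit members had medians of 0.82 and 0.74.

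The stalk mRNAs differed among themselves. Rplp1 had 9713, 9581 and 10277 scaled TPM against 5014 and 5515 (0.91 ± 0.07 SE), and Rplp2 had 3310, 3431 and 3669 against 2575 and 2838 (0.36 ± 0.07 SE). Rplp0 had 2846, 2762 and 2915 against 2807 and 2958, overlapping libraries with no difference found (-0.02 ± 0.05 SE, 95% interval -0.14 to 0.10, adjusted p = 0.726, limma), and with deposited TPM its change was 0.08. Rpsa was at 0.26 ± 0.06 SE. After quantile normalization Rplp2 and Rpsa turned to -0.03 and -0.17, and relative to the class to -0.44 and -0.54. In deposited TPM Rplp0 ranked 13 among the members in ribodepleted WT RNA at 0 h and 39 in polyA RNA, while Rps16 ranked 69 and 43. Over the 73 members above 100 TPM the mean levels of these groups had a Spearman's rho of 0.74.

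Lower in polyA RNA were Rpl29, Rps27, Rpl30, Rpl13a and Rpl34. Rpl29 stood out with 73.2, 65.9 and 67.7 scaled TPM in polyA RNA and 400 and 461 in ribodepleted RNA, a 6.16-fold lower level (-2.62 ± 0.07 SE, adjusted p = 6.48e-09, limma). It rested on 1771 to 2022 reads per polyA library. Rps27 had 2.8, 3.8 and 4.1 against 10.3 and 11.5 (-1.40 ± 0.12 SE) and Rpl30 had 1.7, 1.4 and 1.4 against 3.3 and 5.1 (-1.02 ± 0.14 SE). Rpl13a, a large subunit protein, was the abundant one of the 5, with 1644, 1534 and 1589 against 2189 and 2405 (-0.53 ± 0.06 SE), and Rpl34 was at -0.39 ± 0.06 SE.

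**Figure D5:**
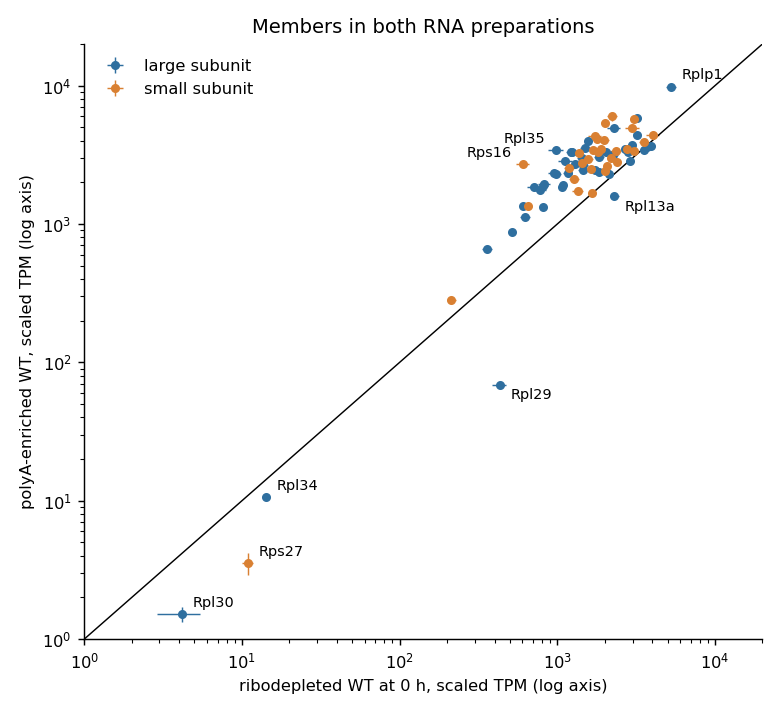
Mean scaled TPM of the 76 tested members in polyA-enriched WT RNA (3 libraries) against ribodepleted WT RNA at 0 h (2 libraries), both on log axes, with SD bars, blue for the large and orange for the small subunit. Most members lie above the line of equal levels, Rpl29 lies far below it, and Rpl34, Rps27 and Rpl30 form a separate group at low levels.

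The related lists behaved differently in this comparison, where 40.1% of all tested genes were higher and 40.8% lower. Fau (0.59 ± 0.05 SE) was higher in polyA RNA and Gnb2l1 was lower (-0.48 ± 0.05 SE). The 75 mitochondrial ribosomal protein mRNAs had 39 higher and 18 lower (median 0.14), the other TOP mRNAs 9 higher and 3 lower of 16 (median 0.18), and the assembly factors 9 higher and 15 lower of 30 (median -0.09). RNA polymerase I genes had 2 higher and 9 lower of 14. Member length and log2 change had a Spearman's rho of -0.31 across 76 members.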

How the data were processed

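The deposited files hold TPM per gene for 23284 genes in each of 11 libraries. By the study's methods and the labels, the authors checked reads with FastQC, removed ribosomal and transfer RNA with Bowtie2, trimmed with Trimmomatic, aligned to mm9 with STAR, counted RefSeq genes with HTSeq and converted counts to TPM. Versions, the treatment of reads with several matches and the strand setting are not given in the sources used here, so reads of overlapping antisense genes may not be separated.

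Size factors (median of ratios to the geometric mean over tested genes) turned deposited TPM into scaled TPM. Genes with a mean above 1 were tested as log2(scaled TPM + 1) with limma 3.58.1 in R 4.3.3 (eBayes with a variance trend, two-sided, Benjamini-Hochberg adjustment over all tested genes). Folds on this scale understate the change of low genes. The 8 ribodepleted libraries entered 1 fit with a coefficient per group (12467 genes) and the polyA and WT 0 h libraries another (12481 genes). Passing means an adjusted p under 0.05, and 1.5-fold was a second limit. Shares and ratios use deposited TPM and have no test.

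Named members are the 4 highest and lowest by mean, the 3 largest rises and falls of each comparison, Rplp0, Rplp1, Rplp2, Rpsa and those past 1.5-fold in an amanitin or genotype comparison. Fau, Gnb2l1, the Tet genes and the 2 highest genes of each related list were also named, and some genes that this rule names are not reported here. Members in counts of 5 or fewer, and members followed from one comparison into another, were named after their values were seen. Members and lists were chosen with earlier results of these data known.

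Whole reads were recovered from the ratios of a gene's TPM between libraries, within a tolerance of 0.01, for 19869 of 19869 genes above 0. limma voom on these reads was an alternative added after seeing the data. Reads are not independent molecules, so read limits cover counting error only. Copies were found with blastn 2.17.0 against NCBIM37. The study describes the amanitin series as biological duplicates. It states independent repeats in general terms, but the labels do not say so of the polyA libraries. Where cultures were not separate, p-values measure only the spread between libraries. Replicate libraries differed beyond sampling noise (chi-square over degrees of freedom 1.56 to 11.1). The fits were tested on simulated data. Alternatives were other scalings, pseudocounts, filters and fits, and leaving out each library.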

Additional observations from a re-analysis of the deposited data

How the results depend on the processing

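Of 60 results for single genes 46 kept their direction under all alternatives run, and of 1006 alternative values 891 kept direction and side of the threshold, 66 lost it, 17 gained it and 32 turned direction. Counts are given as members higher and lower, in the order amanitin in WT, TKO at 0 h, TKO at 4 h and polyA where no comparison is named. Deposited TPM gave 11 higher for amanitin in WT (median 0.12), 16 higher at 0 h, 13 and 21 at 4 h, and a polyA median of 0.91. Quantile normalization gave 17 higher (median 0.075), 20 and 12 (median -0.000332), 16 and 23 (median -0.044), and 20 lower in polyA (median 0.50). Scaling to the members gave 2 and 2 (background 0.0881% and 26.96%), 19 higher, 20 and 13, and 34 and 34. The medians were 0.0065, 0.0062, -0.014 and 0.0023, and 0.0015 for amanitin in TKO, by construction of this scaling. No filter on low values gave 7 higher (background 11.1%), 3 lower at 0 h (background 19.99%) and 2 higher at 4 h (background 20.6%). Fits of the libraries compared alone gave 8 and 13 at 0 h (background 30.4% and 28.9%) and 10 lower at 4 h (background 25.9%). voom gave 8 higher for amanitin in TKO, and 8 and 29 at 0 h. Requiring 1.5-fold left 0 higher for amanitin in WT, 1 and 0 at 0 h, 0 and 0 at 4 h, and 3 lower in polyA. Without short structured RNA the class share was 22.8% in polyA, 15.3% and 16.9% in WT at 0 h and 4 h, and 15.5% and 16.5% in TKO. Without the 5 highest members it was 19.97%, 10.95%, 11.9%, 11.04% and 11.6%, and the subunit ratio 0.844, 0.818, 0.822, 0.783 and 0.792. As a ratio of medians it was 1.28, 1.33, 1.33, 1.28 and 1.29, above 1 where the ratio of sums was below it. The cause of these shifts was not tested beyond what is stated.

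Leaving out 1 library at a time gave 0 to 37 higher and 1 to 1 lower members for amanitin in WT (median 0.21 to 0.34), 0 to 43 and 0 to 2 in TKO (0.07 to 0.27), 0 to 0 for both directions of the interaction (-0.21 to -0.0012), 4 to 5 and 1 to 8 for TKO at 0 h (-0.19 to -0.05), 2 to 7 and 5 to 53 at 4 h (-0.33 to -0.13), and 62 to 66 and 5 to 6 for polyA (0.75 to 0.84). Class shares ranged over 22.6% to 22.7% in polyA, 12.5% to 13.2% and 13.7% to 14.3% in WT, and 13.1% to 13.2% and 13.3% to 14.3% in TKO, and subunit ratios over 0.802 to 0.805, 0.768 to 0.778, 0.772 to 0.782, 0.767 to 0.771 and 0.772 to 0.773. Directions turned for Rpl30 (amanitin in WT 0.047 after quantile normalization and -0.37 to 0.31 without 1 library, in TKO -0.085 to 0.65 and the interaction -0.043 to 0.69 without 1 library), Rpl3 (amanitin in TKO -0.00527, -0.036 and -0.068 with deposited, quantile and member scaling), Rplp1 (amanitin in TKO -0.038 after quantile normalization, TKO at 0 h 0.0082, 0.038 and 0.032 with these scalings, at 4 h 0.029 relative to the members), and Rplp2 and Rpsa (amanitin in TKO -0.0080 and -0.0058 relative to the members). The interaction of Rpl29 became 0.047, 0.065 and 0.094 with these scalings, 0.00049 with a filter above 5 TPM and -0.12 to 0.097 without 1 library, and that of Rplp2 was -0.26 to 0.0077 without 1 library. In polyA Rplp0 became 0.083 with deposited TPM, 0.00040 without a filter and -0.068 to 0.0067 without 1 library, and Rplp2 and Rpsa became -0.030 and -0.17 after quantile normalization and -0.44 and -0.54 relative to the members.

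Same-numbered libraries did not deviate together over all genes (correlations of deviations from -0.04 to 0.12). Over the members alone these ran from -0.59 to 0.78, with both signs, and the samples were taken to share only a number. The fit with the replicate number as a block gave 45 higher and 1 lower members for amanitin in WT, 0 and 0 in TKO and for the interaction, 5 and 5 for TKO at 0 h, 5 and 37 at 4 h, and 59 and 5 for polyA. Of all tested genes 22.3% were higher and 15.9% lower in this fit for amanitin in WT. The shares were 28.0% and 28.5% for TKO at 0 h, and 29.1% and 30.4% at 4 h. With 2 libraries a group, the counts for amanitin in WT and for both genotype comparisons changed with single libraries, and the few reads of Rpl34, Rps27 and Rpl30 limit their precision.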
